A study of Mus musculus with 8 samples.

Results

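The 30 genes described here encode apolipoproteins and the proteins that assemble, remodel, receive and clear lipoproteins. They were taken by symbol from a named list, and each matched 1 of the 55450 genes in the liver RNA tables. All 30 had enough counts to be tested. RNA was measured in 8 mouse livers taken at 10 weeks of age, 4 with floxed Cebpa alleles and no Cre (Cebpa fl/fl, Cre-, titled WT, here controls) and 4 in which hepatocytes had lost Cebpa (CebpaΔHep, Cre+, titled KO, here knockouts). Controls and knockouts alike were fed a liquid control diet (5 days) followed by 4 weeks on liquid diet containing 5% ethanol (vol/vol), so no value measures a response to ethanol. The sources used here do not give the promoter that drives Cre, the strain or the sex. The labels number the livers but do not state that each came from a separate mouse, so p-values measure the spread between these livers.

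Lipoproteins are particles of lipid and protein that carry triglyceride and cholesterol in blood. Hepatocytes build very low density lipoprotein (VLDL) on apolipoprotein B and make most of the apolipoproteins of high density lipoprotein (HDL). Lipases in vessels then release fatty acids from the particles, and receptors on hepatocytes take up what remains. The protein of Cebpa, C/EBP alpha, activates genes of mature hepatocytes.

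Expected counts summed to between 21048350 and 28148744 per liver. Levels between livers are given as CPM, counts scaled to a common library size, and levels between genes as TPM, which are also scaled to transcript length. Cebpa fell from 293.3 ± 31.1 CPM in the controls to 7.06 ± 1.65 CPM in the knockouts (SD, n = 4, edgeR adjusted p = 4.78e-07), without overlap. Control 2 and knockout 4 lay farthest from the mean of their group over all tested genes, and a fit without that pair is given beside the main values. The 4 hepatocyte markers Alb, Ahsg, Serpinc1 and Fgb summed to 54241 to 71554 TPM in controls and 71196 to 74829 TPM in knockouts. Alb made up most of that sum, at 43447 to 63749 TPM in controls and 63250 to 67177 TPM in knockouts. The log2 fold changes of Alb (0.19) and Serpinc1 (0.04) were positive, and those of Ahsg (-0.36) and Fgb (-0.17) negative. None had an edgeR adjusted p below 0.05.

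Of the 30 genes, lipoprotein lipase (Lpl) alone passed edgeR's test, and it was higher in the knockouts. The background was 2.06% of the 13303 genes tested (0.849% higher and 1.21% lower), so 1 call in 30 genes is close to it. An unadjusted p below 0.05 was found for 12 of the 30, 3 higher and 9 lower, where 18.5% of all tested genes had one (9.61% higher and 8.9% lower). By CPM the livers of the groups did not overlap in 7 genes, 2 higher and 5 lower. Of all tested genes, 11.5% had no overlap by CPM (5.54% higher and 5.92% lower). By TPM the groups did overlap for Mttp, Lcat and Pon3 of these genes, and did not for Apoa2, which was higher in the knockouts. The share of all genes without overlap by TPM was not computed. The log2 fold change was negative in 19 genes and positive in 11, where 50.7% of all tested genes were positive, and the median was -0.20 against 0.0036 for all tested genes. With library sizes alone as scaling 18 were negative and the median was -0.13, against 0.07 for all genes, and on log2(TPM + 1) values 17 were negative and the median was -0.04, against 0.09. Without control 2 and knockout 4 the median was -0.16, Apom was called lower beside Lpl on a background of 3.22%, and 16 of the 30 had an unadjusted p below 0.05, where 20.8% of all tested genes had one.

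For many of the 30, the log2 fold change moved by a large ratio when livers were left out. Without control 2 and knockout 4, the log2 fold change of 16 genes moved by over 1.5 times or turned its sign, and with some 1 liver left out that of 19 did, in 14 of them without control 2. Values near 0 meet this rule with small shifts, among them Apoe (-0.05, SE 0.12), Apoc1 (0.07, SE 0.13) and Angptl4 (0.05, SE 0.13) with all livers. Without the pair, values were farther from 0 for Apoa5 (-0.36), Apoc3 (-0.32), Scarb1 (0.50), Abcg1 (0.72), Lipc (0.16) and Lipg (0.25). They were nearer to 0 for Apof (-0.23), Tm6sf2 (-0.20), Lrp1 (-0.12), Pltp (0.24), Apoc1 (0.04), Apoe (-0.03), Abca1 (-0.08) and Apom (-0.48). Sort1 and Angptl4 turned, to 0.29 and -0.02. Of these 16, edgeR called Apom alone without the pair, and none with all livers.

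**Figure D1:**
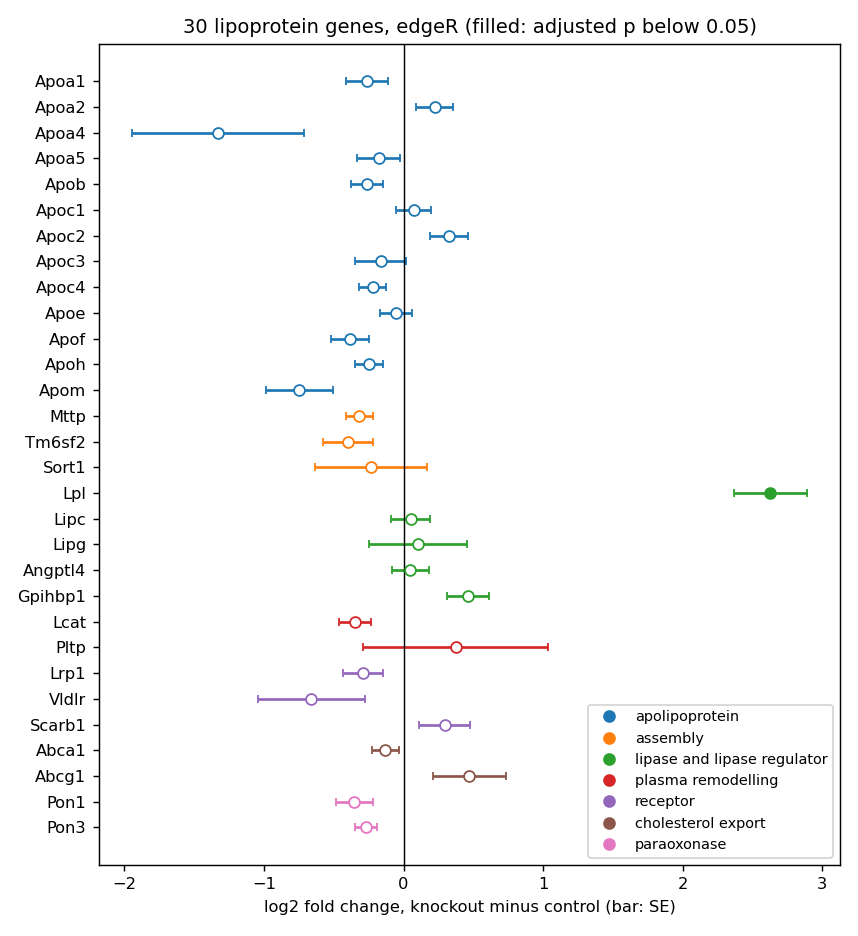
Log2 fold change of the 30 genes, knockout minus control, from the edgeR fit over all genes, with its SE as bars and colours for the role of each gene. Lpl, at 2.63, is the 1 filled point (adjusted p below 0.05), and the other genes lie between -1.33 and 0.47.

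Lpl encodes the lipase that hydrolyses triglyceride of VLDL and chylomicrons at the vessel wall. It is abundant in fat, heart and muscle and low in adult liver. The gene (ENSMUSG00000015568.16) spans bases 68880491 to 68907448 of chromosome 8 in mm10, plus strand, and no other annotated gene overlaps it. Lpl stood at 18.1, 20.3, 13.6 and 24.0 CPM in controls 1 to 4, against 70.4, 112.9, 133.4 and 152.9 CPM in knockouts 1 to 4. The lowest knockout therefore lay well above the highest control, and knockout 1 was the lowest of its group. The rise of Lpl was 6.18-fold, or 2.63 on the log2 scale (SE 0.26), and passed the test (edgeR adjusted p = 0.00262). Between 322 and 4484 expected counts per liver stood behind these values. It held rank 22 by fold among the 113 genes called higher. On the length-scaled scale it went from 6.01 ± 1.35 TPM to 40.5 ± 11.99 TPM (SD, n = 4), from rank 7015 to rank 2087 among all genes. The log2 fold change stayed between 2.47 and 2.80 with any 1 liver left out, and Lpl was called in each of those 8 fits (edgeR adjusted p from 0.000608 to 0.0171).

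The other lipases and the regulators of Lpl showed no call. Gpihbp1 encodes the capillary endothelial protein that binds Lpl and carries it to the vessel lumen, from a gene at bases 75596628 to 75599481 of chromosome 15. Its level was 6.77, 9.32, 8.34 and 9.06 CPM in the controls, against 10.9, 14.5, 10.1 and 10.7 CPM in knockouts 1 to 4. Each knockout was above each control, yet the log2 fold change of 0.46 did not pass the test (SE 0.15, edgeR adjusted p = 0.139). Angptl4 encodes a secreted inhibitor of Lpl and was at 204.3 ± 17.9 CPM in the controls, against 211.1 ± 39.6 CPM in the knockouts (SD, n = 4, edgeR adjusted p = 0.882). Hepatic lipase, Lipc, which acts on remnants and HDL, was at 108.0 ± 16.9 and 112.1 ± 18.3 CPM (SD, n = 4, edgeR adjusted p = 0.870). Endothelial lipase, Lipg, which acts on HDL phospholipid, was at 31.3 ± 7.196 and 33.8 ± 14.3 CPM (SD, n = 4, edgeR adjusted p = 0.904). Knockout 4, at 13.5 CPM, was below all other livers for Lipg, and the other knockouts were at 35.9 to 46.9 CPM. The log2 fold changes of Lipc, Lipg and Angptl4 were 0.05 (SE 0.14), 0.10 (SE 0.35) and 0.05 (SE 0.13), and the sign of each turned with some liver left out.

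By TPM, Lpl was the lowest of these 5 genes in all 4 controls, at 4.40 to 7.53. In the knockouts, at 24.3 to 53.0 TPM, it stood above Lipg at 5.19 to 17.5 TPM and below Lipc at 120.6 to 162.3 TPM. Gpihbp1 was at 20.9 to 30.9 TPM in the knockouts and overlapped with Lpl there, whereas in controls it was at 12.8 to 19.1 TPM and above it. Angptl4 was the other high gene, at 118.4 to 152.3 TPM in controls and 126.5 to 187.7 TPM in knockouts.

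**Figure D2:**
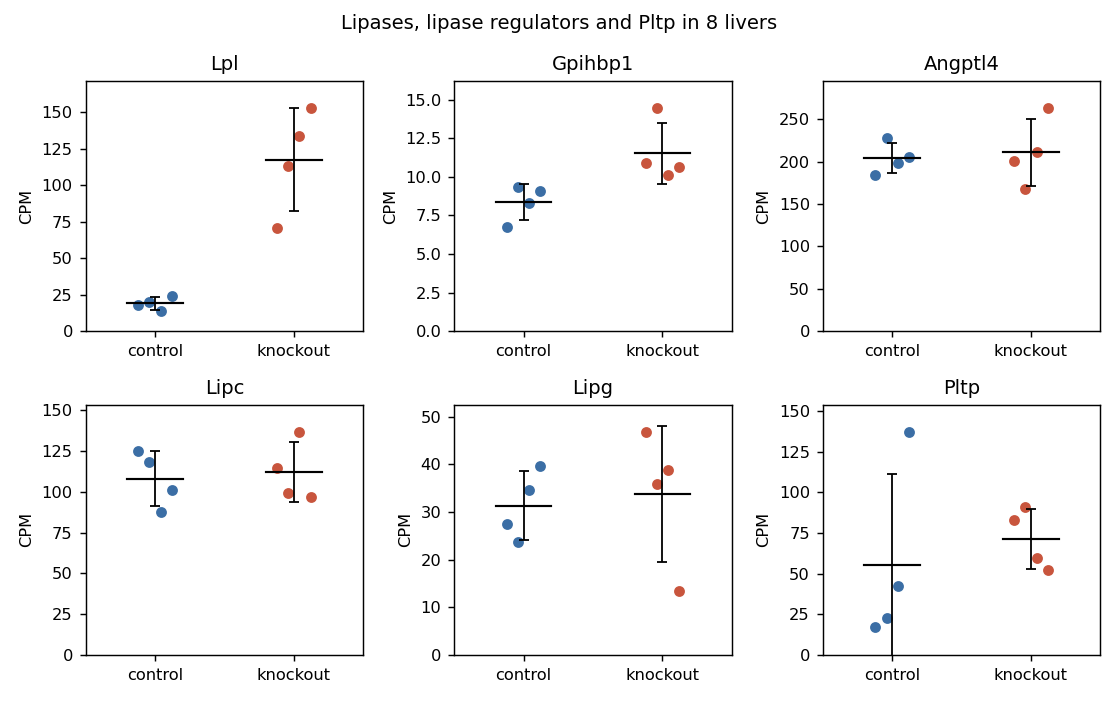
CPM of 5 lipase genes and regulators and of Pltp in each liver (points), with the group mean and SD (bars, n = 4; the lower bar of Pltp in controls is drawn to 0). Lpl runs from 13.6 to 24.0 CPM in the controls, and from 70.4 to 152.9 CPM in the knockouts, while Lipc, Lipg, Angptl4 and Pltp overlap between the groups.

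Other cell types of the liver can express Lpl, and in bulk RNA more cells of a type and more RNA per cell cannot be told apart. All 8 macrophage markers had a positive log2 fold change (median 0.53), and none passed the test. Their summed level was 89.5 to 200.5 TPM in controls and 149.0 to 264.3 TPM in knockouts, and none was at 0. The 2 with the smallest adjusted p were Cd68, at 4.52 ± 1.59 and 7.62 ± 2.34 CPM (edgeR adjusted p = 0.200), and Adgre1, at 9.13 ± 3.53 and 14.8 ± 3.92 CPM (SD, n = 4, edgeR adjusted p = 0.243). All 8 endothelial markers were positive as well (median 0.24, none called), with sums of 69.3 to 91.3 TPM and 86.1 to 127.1 TPM. Pecam1 and Cdh5 had the smallest adjusted p of that list, 0.130 and 0.202 by edgeR. The 8 stellate cell markers were likewise all positive (median 0.33, none called), with sums of 119.9 to 243.0 TPM and 223.6 to 346.3 TPM. Pdgfrb and Col3a1 had the smallest edgeR adjusted p there, 0.156 and 0.205. Of 5 tested cholangiocyte markers, Epcam, Spp1 and Krt19 were called higher (edgeR adjusted p = 0.0216, 0.0359 and 0.0467). Epcam and Krt19 rested on few counts, 266 and 181 over all 8 livers, with control means of 0.729 and 0.445 CPM. The 6 cholangiocyte genes summed to 24.5 to 64.5 TPM in controls and 118.6 to 414.9 TPM in knockouts, without overlap. Spp1 alone made up most of that sum, at 22.1 to 61.1 TPM in controls and 113.6 to 408.7 TPM in knockouts. The other 5, summed after this was seen, were at 1.69 to 3.43 TPM in controls and 5.06 to 6.19 TPM in knockouts, also without overlap. Each of these 3 calls was lost in several fits with 1 liver left out, with adjusted p up to 0.0705 for Epcam, 0.0892 for Spp1 and 0.119 for Krt19. The part of these cells in the Lpl result was not tested.

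Among the knockouts, knockout 1 was lowest for Lpl and for the macrophage and endothelial sums, and knockout 3 for the stellate and cholangiocyte sums. The highest Lpl was in knockout 4 and the highest sum of each of the 4 lists in knockout 2. Of 6 adipocyte genes, Adipoq, Plin1, Lep and Retn had no count in any liver, Adrb3 had too few counts to be tested, and Cidea was at 1.58 ± 1.66 CPM in the controls, against 5.88 ± 3.41 CPM in the knockouts (SD, n = 4, edgeR adjusted p = 0.307). The 4 skeletal muscle markers summed to at most 0.18 TPM in any liver. Among 4 intestinal markers, Lgals4 and Fabp2 were tested and not called (edgeR adjusted p = 0.368 and 0.712), and Cdx2 had no count. The hepatocyte markers with the smallest edgeR adjusted p were Ahsg and Alb, at 0.210 and 0.532. By CPM, Ahsg was lower in every knockout than in every control.

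**Figure D3:**
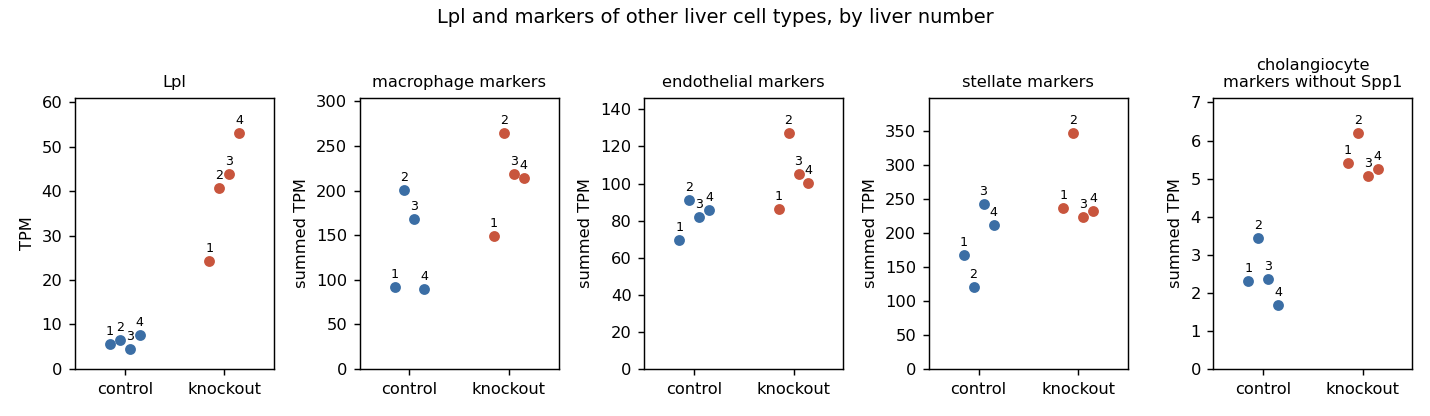
Lpl in TPM and the summed TPM of markers of 4 other liver cell types (cholangiocyte genes without Spp1) in each liver, with the liver numbers at the points. Knockout 1 is lowest among the knockouts for Lpl, at 24.3 TPM, and for the macrophage and endothelial sums, and knockout 4 is highest for Lpl and knockout 2 for the 4 sums.

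The apolipoproteins were among the most abundant RNAs of the liver, and none of the 13 passed the test. Their sum was 7.84% to 9.68% of all TPM, or 86905 ± 5929 TPM in controls and 93078 ± 4266 TPM in knockouts (SD, n = 4). The log2 fold change was negative in 10 and positive in 3. Apoe, the ligand for remnant uptake, ranked 3 of all genes by TPM in both groups, and Apoa2, the second structural protein of HDL, ranked 4. Apoe was at 32679 to 34839 TPM in controls and 32051 to 37170 TPM in knockouts, and Apoa2 at 17712 to 22587 and 23171 to 27524 TPM. Below them in controls stood Apoc1 at 10444 to 13229 TPM and Apoa1, the main HDL protein and activator of Lcat, at 7754 to 11049 TPM, and these 2 overlapped. The remaining 9 followed from Apoc3 at 2925 ± 631 TPM to Apom at 186.0 ± 79.7 TPM in controls (SD, n = 4).

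**Figure D4:**
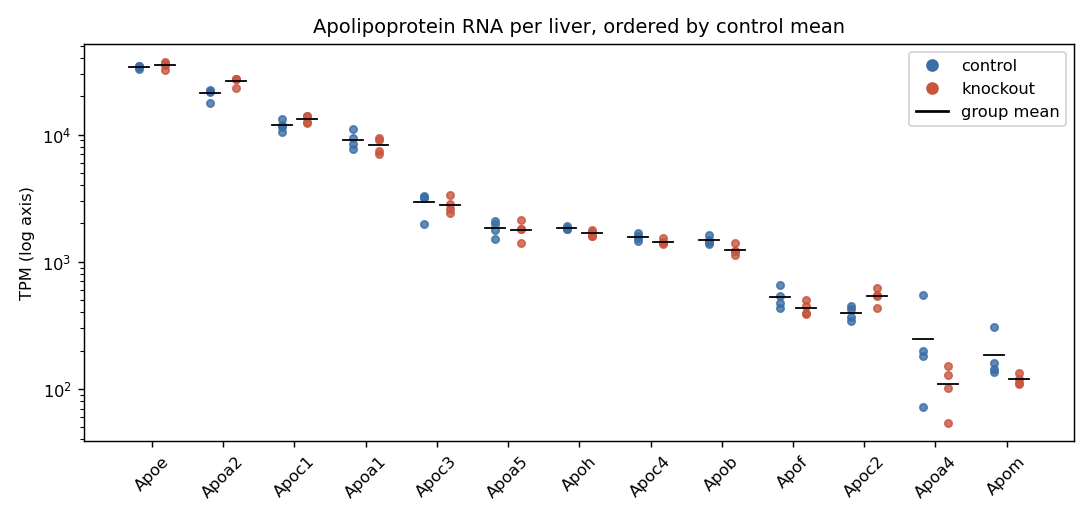
TPM of the 13 apolipoprotein genes in each liver on a log axis, ordered by their control mean, with group means as lines. Apoe is the highest in both groups and Apom the lowest in controls, and in Apoa4 the controls spread most.

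Apom, which encodes the HDL apolipoprotein that carries sphingosine 1-phosphate and lies at bases 35128997 to 35132050 of chromosome 17, had the smallest adjusted p of the apolipoproteins. Its level was 109.8, 196.2, 87.2 and 96.8 CPM in the controls, against 69.7, 64.1, 77.1 and 81.3 CPM in knockouts 1 to 4. All knockouts were below all controls, and control 2 stood above the other controls. The 1.68-fold lower level did not pass edgeR's test (log2 fold change -0.75, SE 0.24, adjusted p = 0.152). DESeq2, which called 5.54% of all genes in either direction, called Apom lower (adjusted p = 0.0302). So did edgeR without control 2 and knockout 4 (log2 fold change -0.48, adjusted p = 0.0475, background 3.22%). That pair was chosen after the data were seen, for its distance from the group means. Without control 2 alone the log2 fold change was -0.43 (edgeR adjusted p = 0.0971). No fit with 1 liver left out called Apom (edgeR adjusted p from 0.0971 to 0.335).

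Apoh, or beta-2-glycoprotein I, a plasma protein that binds phospholipid (chromosome 11, bases 108343354 to 108414396), was at 1499, 1485, 1419 and 1497 CPM in the controls, against 1217, 1123, 1373 and 1262 CPM in the knockouts. The groups did not overlap and the difference was small, a log2 fold change of -0.25 (SE 0.10, edgeR adjusted p = 0.221). DESeq2 called Apoh lower (adjusted p = 0.0496, background 5.54%). Prkca overlaps Apoh on the opposite strand, with 0.642% of its counts. The apolipoprotein gene Apof was at 450.5 ± 77.2 CPM in the controls, against 345.1 ± 41.5 CPM in the knockouts (SD, n = 4, log2 fold change -0.38, edgeR adjusted p = 0.179).

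Apob encodes the structural protein of VLDL and LDL and lies at bases 7977648 to 8016835 of chromosome 12. It was at 7337, 8302, 7976 and 7742 CPM in the controls, against 7417, 5789, 6318 and 6610 CPM in knockouts 1 to 4. Knockout 1 lay among the controls, and the log2 fold change of -0.26 did not pass the test (SE 0.12, edgeR adjusted p = 0.264). RSEM's mean length of Apob, weighted by the estimated share of each transcript, was 6783 ± 174 bases in controls and 7254 ± 255 bases in knockouts (SD, n = 4). Its 4 annotated transcripts are 13934, 13369, 2174 and 1118 bases long, so the estimate mixes full-length and short ones and its TPM depends on that mix. The length difference did not pass limma's test over 11262 genes (adjusted p = 0.722).

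The same test called no gene at all (0%), with 699 genes, or 6.21%, at an unadjusted p below 0.05. Of the 26 lipoprotein genes with more than 1 transcript, Apob and Scarb1 were at that level. Scarb1 had a mean length of 2402 ± 27.5 bases in controls and 2303 ± 50.6 bases in knockouts (SD, n = 4, limma adjusted p = 0.686). For Lpl the mean length was 4111 ± 8.37 and 4085 ± 54.0 bases (SD, n = 4, limma adjusted p = 0.953), close to the 4115 bases of its coding transcript in both groups.

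Apoa1, Apoc3, Apoa4 and Apoa5 lie within 43340 bases on chromosome 9, from 46228580 to 46271919 of mm10. All 4 had negative log2 fold changes, from -1.33 to -0.16, and none was called. Apoa4, a lipid-binding protein of HDL and triglyceride-rich particles, was at 245.3, 92.4, 252.5 and 719.3 CPM in the controls, against 160.0, 173.6, 67.6 and 120.7 CPM in the knockouts. Control 4 was far above the rest and control 2 was below 3 of the knockouts. With all livers the log2 fold change stood at -1.33 (SE 0.62) and did not pass the test (edgeR adjusted p = 0.305), and without control 4 it was -0.60. Apoa1 was at 6174 ± 1093 and 5140 ± 563 CPM, and Apoa5, which raises the activity of Lpl, at 1628 ± 269 and 1440 ± 219 CPM (SD, n = 4, edgeR adjusted p = 0.379 and 0.572). Apoc3, which slows lipolysis and remnant uptake, was at 795.0 ± 186 and 710.6 ± 106 CPM (SD, n = 4, edgeR adjusted p = 0.670).

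A second cluster holds Apoe, Apoc1, Apoc4 and Apoc2 within 27610 bases on chromosome 7, from 19671579 to 19699188. Its log2 fold changes ran from -0.22 for Apoc4 to 0.33 for Apoc2. Apoc2, the activator that Lpl needs, was at 166.1, 118.7, 127.0 and 152.4 CPM in the controls, against 182.5, 195.8, 188.4 and 141.0 CPM in the knockouts. Knockouts 1 to 3 were above every control and knockout 4 was not (SE 0.14, edgeR adjusted p = 0.235). Apoc4 was at 440.3 ± 38.1 and 377.6 ± 24.3 CPM (SD, n = 4, edgeR adjusted p = 0.256). A gene that overlaps both on the same strand, Gm44805, held 8.27% of the counts of Apoc2 and 3.23% of those of Apoc4, so their division is an estimate. Apoe was at 19413 ± 1066 and 18731 ± 1383 CPM (SD, n = 4), a log2 fold change of -0.05 (SE 0.12, edgeR adjusted p = 0.841) whose sign turned with library size alone and with TPM. Apoc1 was at 2314 ± 299 and 2433 ± 248 CPM, and Apoa2 at 5298 ± 683 and 6188 ± 592 CPM (SD, n = 4, edgeR adjusted p = 0.795 and 0.401). The log2 fold changes of Apoc1 and Apoa2 were 0.07 (SE 0.13) and 0.22 (SE 0.13).

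Mttp encodes the microsomal protein that loads triglyceride onto apolipoprotein B and lies at bases 138089854 to 138144968 of chromosome 3. Its level was 349.7, 372.8, 357.1 and 378.3 CPM in the controls, against 314.1, 274.3, 260.8 and 322.4 CPM in knockouts 1 to 4. By CPM every knockout was below every control, whereas by TPM knockout 4 (116.97) lay above control 1 (112.05). The log2 fold change of -0.32 did not pass edgeR's test (SE 0.10, adjusted p = 0.125), and DESeq2 called Mttp lower (adjusted p = 0.0213, background 5.54%). Trmt10a overlaps it on the opposite strand, with 1.42% of its counts. Tm6sf2, which acts in the lipidation of VLDL, was at 17.1 ± 4.35 and 13.0 ± 2.39 CPM, and the sorting receptor Sort1 at 12.5 ± 7.53 and 10.6 ± 3.43 CPM (SD, n = 4, edgeR adjusted p = 0.281 and 0.792). Control 2 held 23.7 CPM of Sort1, and without it the log2 fold change went from -0.23 to 0.28. The log2 fold changes of all 3 assembly genes were negative with all livers, and that of Sort1 was positive without control 2.

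Lcat, which esterifies cholesterol on HDL (chromosome 8, bases 105939551 to 105943382), was at 330.2, 429.8, 329.4 and 343.3 CPM in the controls, against 266.8, 263.5, 324.5 and 272.2 CPM in the knockouts. By CPM all knockouts were below all controls, with knockout 3 the nearest to them (log2 fold change -0.35, SE 0.12, edgeR adjusted p = 0.156). By TPM knockout 3 (362.99) lay above control 1 (344.48). Pltp, which transfers phospholipid between lipoproteins, was at 17.1, 23.0, 42.7 and 137.4 CPM in the controls, against 83.3, 90.7, 59.6 and 52.0 CPM in the knockouts. Control 4 was the highest of all livers and the other controls were below every knockout. With all livers its log2 fold change was 0.37 (SE 0.66; edgeR gave an adjusted p of 0.797) and 1.36 without control 4 (adjusted p = 0.124). Ctsa lies on the opposite strand of Pltp with overlapping exons, and its counts over the whole gene were 178% of those of Pltp. If the counting ignored strand, reads from the shared exon bases were divided between the genes by estimate. How many reads those were was not measured.

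Among the receptors, Lrp1, a remnant receptor of hepatocytes, was at 795.8 ± 148 and 650.2 ± 66.5 CPM (SD, n = 4, log2 fold change -0.29, edgeR adjusted p = 0.304), and without control 2 the log2 fold change was -0.16. Scarb1, the HDL receptor that takes up cholesteryl ester, was at 136.6 ± 34.8 and 167.6 ± 29.3 CPM (SD, n = 4, log2 fold change 0.30, edgeR adjusted p = 0.418), with 0.16 without knockout 3, 0.18 without control 3 and 0.47 without control 2. Vldlr, the VLDL receptor, rested on 15 to 51 counts per liver, at 1.62 ± 0.604 and 1.03 ± 0.420 CPM (SD, n = 4, log2 fold change -0.66, SE 0.38, edgeR adjusted p = 0.389). Abca1, which starts HDL by exporting cholesterol to Apoa1, was at 171.9 ± 18.5 and 157.1 ± 10.2 CPM (SD, n = 4, edgeR adjusted p = 0.507), with a log2 fold change of -0.13 that was 0.01 on log2(TPM + 1) values. Abcg1, an exporter of cholesterol to mature HDL, was at 5.22 ± 1.70 and 7.22 ± 1.95 CPM (SD, n = 4, log2 fold change 0.47, SE 0.26, edgeR adjusted p = 0.370).

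Pon1 and Pon3 encode paraoxonases, lactone-hydrolysing enzymes carried on HDL, and lie within 88197 bases on chromosome 6, from 5168090 to 5256286. Pon1 was at 687.8, 556.4, 735.3 and 717.2 CPM in the controls, against 574.6, 457.2, 609.8 and 471.1 CPM in the knockouts. Control 2 lay among the knockouts, and the other controls were above them (log2 fold change -0.35, SE 0.13, edgeR adjusted p = 0.198). Pon3 was at 66.8, 81.2, 76.7 and 71.9 CPM in the controls, against 61.9, 59.0, 66.4 and 58.8 CPM in the knockouts. Its groups did not overlap by CPM, although control 1 and knockout 3 nearly met (log2 fold change -0.27, SE 0.08, edgeR adjusted p = 0.126). By TPM control 1 (50.08) lay below every knockout.

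**Figure D5:**
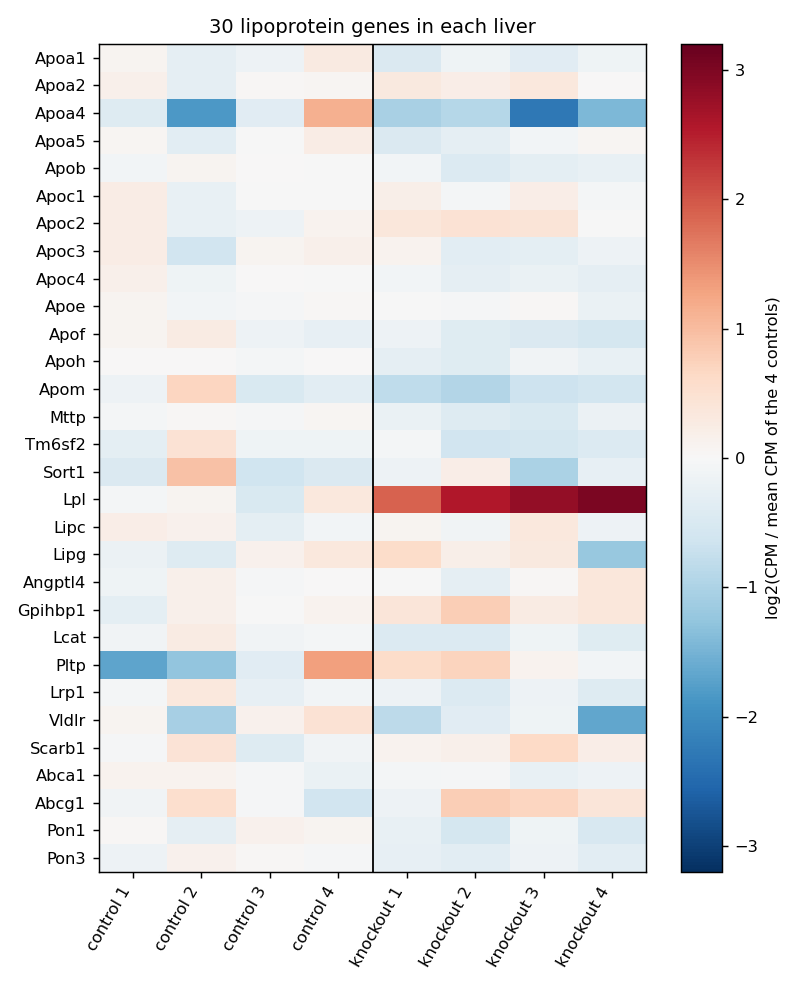
CPM of each of the 30 genes in each liver as log2 of its ratio to the mean of the 4 controls (colour), with a line between controls and knockouts. Lpl is high in all 4 knockouts, whereas Apoa4 and Pltp in control 4 and Sort1 and Apom in control 2 stand out in single controls.

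Promoter sequence was available for 19 of the 30 genes, in 25 windows of 250 bases before a RefSeq start on GRCm38.p6, the assembly of mm10. Apoc1, Apoc3, Apof, Tm6sf2, Sort1, Lpl, Lipg, Angptl4, Gpihbp1, Scarb1 and Abcg1 had no entry. The letters TTGCNNAA, a simple form of the site that C/EBP proteins bind, were searched on both strands. They occurred in 6 of the 25 windows (24.0%), those of Apoa2, Pltp, Pon1, Pon3, Apob and Vldlr, and in 9.56% of all 32851 windows of that length. CCAAT was found on either strand in 9 of the 25 (36.0%) and in 33.8% of all windows. In the 25 windows CCAAT overlapped no match of TTGCNNAA. TATAAA, also searched on both strands, was found in 6 of the 25 windows (24.0%) and in 12.4% of all windows. A share above that of all windows was therefore not particular to TTGCNNAA. These are matches of letters and were not tested. GENCODE M21 starts some genes upstream of RefSeq, so that 250 bases of the window of Mttp, 249 of that of Apom and 53 of that of Pon3 are annotated exon. The window of Apoa2 with the matches of TTGCNNAA lies at chr1:171221314-171221563, all 250 bases of it exon of the neighbour Tomm40l. The window just before the GENCODE start of Apoa2, 171225054, held no match of TTGCNNAA. Of the 6 genes with a match of TTGCNNAA, Apoa2 (0.22) and Pltp (0.37) had positive log2 fold changes and the others negative ones. Windows with at most 29 exonic bases are shown for 3 genes with lower values. Within that limit, the windows of Pltp (3 exonic bases) and Vldlr (0 exonic bases) with a match of TTGCNNAA are not shown. Nor are other windows without a match. Pon1 and Apob held a match of TTGCNNAA, and Apoh, which DESeq2 called lower, held none in its window. They are chr6:5193947-5194196 for Pon1 (minus strand), chr12:7977427-7977676 for Apob (plus strand) and chr11:108395047-108395296 for Apoh (plus strand), each printed 5′ to 3′ on the strand of its gene with matches of TTGCNNAA in capitals.
Pon1: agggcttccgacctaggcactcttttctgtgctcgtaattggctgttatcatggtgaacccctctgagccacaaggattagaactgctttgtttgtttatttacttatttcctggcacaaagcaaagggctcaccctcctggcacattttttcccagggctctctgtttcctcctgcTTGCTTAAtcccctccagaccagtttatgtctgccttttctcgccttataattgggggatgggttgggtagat
Apob: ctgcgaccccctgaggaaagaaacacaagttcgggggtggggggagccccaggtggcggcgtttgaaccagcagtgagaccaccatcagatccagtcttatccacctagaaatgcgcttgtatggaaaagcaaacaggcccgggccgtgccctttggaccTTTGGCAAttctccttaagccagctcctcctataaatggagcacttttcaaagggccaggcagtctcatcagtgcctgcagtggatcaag
Apoh: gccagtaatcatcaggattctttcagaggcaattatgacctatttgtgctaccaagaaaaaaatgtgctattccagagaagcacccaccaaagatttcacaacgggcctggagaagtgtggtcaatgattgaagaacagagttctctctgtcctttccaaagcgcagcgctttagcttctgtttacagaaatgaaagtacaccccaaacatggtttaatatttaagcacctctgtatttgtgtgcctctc
In Pon1 the match spanned bases 73 to 66 before the start and in Apob bases 90 to 83. In Pon3, the neighbour of Pon1, it spanned bases 15 to 8, inside the exon of GENCODE.

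Another 96 genes of lipoprotein biology were followed in 6 lists, and edgeR called none of the 84 tested. An unadjusted p below 0.05 was found for 5 higher and 17 lower, where 9.61% and 8.9% of all tested genes had one. DESeq2, whose background was 5.54%, called 1 higher and 6 lower. The median log2 fold change of the 84 was -0.11. Among 12 tested apolipoprotein-related genes (4 lower and none higher at that level), the mouse apolipoprotein gene Apon was at 184.1 ± 25.7 and 79.7 ± 36.3 CPM and clusterin, Clu, at 1555 ± 452 and 1113 ± 96.1 CPM (SD, n = 4, edgeR adjusted p = 0.132 and 0.204). DESeq2 called Apon lower (adjusted p = 0.00305).

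Among 11 tested genes of lipase control (1 higher, 4 lower at that level) was Angptl8, which encodes a partner of the Lpl inhibitors. It was at 9.52 ± 3.19 CPM in the controls, against 4.81 ± 0.673 CPM in the knockouts (SD, n = 4). The groups did not overlap by CPM, whereas by TPM knockout 1 (11.17) lay above control 4 (10.81). The log2 fold change of Angptl8 was -0.98 (SE 0.23, edgeR adjusted p = 0.0638). Sel1l, needed for Lpl to leave the endoplasmic reticulum, was at 179.2 ± 11.9 and 139.4 ± 13.6 CPM (SD, n = 4, edgeR adjusted p = 0.0817). DESeq2 called both lower, with adjusted p of 0.00317 and 0.0106.

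Of 17 genes of VLDL assembly and secretion, 5 were lower at an unadjusted p below 0.05 and none higher. The cargo receptors Lman1 and Surf4 of the early secretory pathway were at 264.5 ± 16.8 and 221.5 ± 18.0 CPM, and at 206.8 ± 23.1 and 173.7 ± 10.6 CPM (SD, n = 4, edgeR adjusted p = 0.174 and 0.206). Of 16 uptake genes, 2 were higher at that level, Mylip, a ligase that degrades lipoprotein receptors, and the scavenger receptor Msr1 (edgeR adjusted p = 0.210 and 0.234). Of 9 sterol transport genes, the lysosomal exporter Npc1 had a log2 fold change of -0.52 and the sterol carrier Gramd1b one of 0.78 (edgeR adjusted p = 0.104 and 0.120). Of 19 transcription factors, Rora and the oxysterol receptor Nr1h3 had log2 fold changes of -0.45 and -0.22 (edgeR adjusted p = 0.109 and 0.130). The corepressor Nr0b2, named after its value was seen, was the gene DESeq2 called higher, at 12.4 ± 3.89 and 30.2 ± 15.5 CPM (SD, n = 4, edgeR adjusted p = 0.155, DESeq2 adjusted p = 0.00843).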

How the data were processed

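Polyadenylated RNA of 8 livers was sequenced from stranded TruSeq libraries, per the labels' protocols. Trimmomatic 0.36, STAR 2.5.1, RSEM 1.2.22, Picard 1.84 and DESeq2, and the genome build mm10, are listed in the submitters' processing notes. For each gene the deposited tables hold expected counts from RSEM, which divide reads shared by several genes, TPM scaled by the authors to length and to a common total, and mean transcript lengths, an other unit in bases, per the file headers. The sources used here do not give the annotation release or the strand setting. All 55450 identifiers matched GENCODE M21, used for coordinates, and promoter windows are from RefSeq.

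Expected counts were rounded, then fitted by edgeR 4.0.16 under R 4.3.3 (filterByExpr with a minimum count of 10 and total of 15, TMM, robust quasi-likelihood test, two-sided, Benjamini-Hochberg over 13303 genes, threshold 0.05). The SE comes from the fold change and the F statistic. Mean transcript length was tested as log2 with limma 3.58.1. Alternatives were library size alone, RLE factors, 1 CPM in 4 livers, no filter, DESeq2 1.42.0, limma-voom, limma-trend on log2(TPM + 1), no robust estimation, a replicate block, each liver left out, and, added after seeing the data, control 2 and knockout 4 left out together. Steps were tested on simulated data. A count of 1 was worth 0.0341 to 0.0485 CPM. Every 2 livers of a group differed by more than sampling noise.

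The genes and lists were chosen with earlier results of these data known. All 30 genes are named, with values per liver where called or not overlapping by CPM, and others by group means. Values per liver of Apob, Apoa4, Apoc2, Pltp and Pon1 were added after they were seen, as were the 3 genes whose windows are shown. Of each other list the called genes are named, or the 2 with the smallest adjusted p. Figures were drawn with matplotlib 3.10.9.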

Additional observations from a re-analysis of the deposited data

Results flagged for a closer look

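Within groups of 4 livers, 1 liver stood apart from the other 3 by more than Dixon's 95% limit in 4 of 60 sets of CPM values (30 genes in 2 groups), and chance alone gives about 1 in 20. Sort1 was at 23.7 CPM in control 2 and 8.004 to 9.11 CPM in the other controls. Lcat was at 429.8 CPM in control 2 and 329.4 to 343.3 CPM in the other controls. In knockout 3 Lcat was at 324.5 CPM, with 263.5 to 272.2 CPM in the other knockouts. Apoh was at 1419 CPM in control 3, slightly below the 1485 to 1499 CPM of the other controls.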

How the results depend on the processing

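Lpl was called higher under all 18 alternatives, with log2 fold changes of 2.47 to 2.80 and adjusted p up to 0.0222, and no alternative added another higher call among the 30 genes. The count of the 30 called lower was 3 with DESeq2 and 1 without control 2 and knockout 4, and 0 otherwise. Of all genes with an adjusted p, DESeq2 called 5.54% in either direction and the fit without that pair 3.22%, against 2.06% in the main test. Over all genes, 113 were higher and 161 lower in the main test. The counts were 384 and 453 with DESeq2, 185 and 246 without control 2 and knockout 4, 161 and 115 with library size alone, 151 and 86 on log2(TPM + 1) values, and 46 to 167 and 61 to 205 with 1 liver left out. Of the 84 pathway genes, DESeq2 called 1 higher and 6 lower, and the lower count was 1 without a filter, 2 without control 2 and knockout 4 and 0 to 1 with 1 liver left out. A replicate block gave 78 higher and 98 lower genes, and Lpl remained called. The deviations of same-numbered livers correlated at 0.207, 0.009, -0.024 and -0.067, and only number 1 correlated best with itself, so liver numbers were not treated as pairs. Signs turned for 6 of the 30, none of them called. The log2 fold change of Apoe was 0.0174 with library size alone and 0.0473 on log2(TPM + 1), and that of Abca1 0.00929 on log2(TPM + 1). That of Lipg was -0.0251 with limma-voom. Without control 2 and knockout 4, Sort1 was at 0.29 and Angptl4 at -0.0246. With 1 liver left out, Sort1 ran from -0.42 to 0.28, Lipc from -0.0658 to 0.13, Lipg from -0.10 to 0.37 and Angptl4 from -0.0800 to 0.14. The cause of these changes was not tested. Of the 26 genes with a length test, none was called with 1 liver left out, with a minimum mean of 10 TPM (which leaves out the low ones), on untransformed lengths or with the block. At this depth Vldlr, Abcg1, Gpihbp1 and Sort1 rest on few counts.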
